A study of Canis lupus familiaris with 30 samples.

Results

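CD163, HMOX1 and FTH1 form a path from haemoglobin uptake to iron storage, and their transcripts were followed in peripheral blood mononuclear cells (PBMC) of dogs on 2 diets. The members were chosen as all probes whose RefSeq transcript belongs to one of the 3 genes, which gave 8 of the 43603 non-control probes on the array: 2 for CD163, 1 for HMOX1 and 5 for FTH1. Adult dogs ate either a kibble that holds carbohydrate (8 dogs per the labels) or raw red meat with much protein and fat (7 dogs) for 9 weeks. PBMC, the layer of mononuclear white cells left after density centrifugation of blood, were taken at weeks 0, 3, 6 and 9. RNA of these 8 groups was compared in pairs on 30 Agilent 2-colour arrays, of which 14 set meat against kibble within a week and 16 set a later against an earlier week within a diet. The breed and sex of the dogs are not given in the sources used here, nor is what the dogs ate before week 0.

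CD163 is a scavenger receptor on the surface of monocytes and macrophages that binds complexes of haemoglobin and haptoglobin and takes them into the cell. HMOX1, haem oxygenase 1, is the inducible enzyme that breaks haem into biliverdin, carbon monoxide and iron. FTH1 is the heavy subunit of ferritin, the shell that stores iron, and it carries the ferroxidase site that oxidises iron on its way into the shell. In blood, CD163 is a marker of monocytes, while ferritin is made by nearly all cells.

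Each group was read in 7 channels (weeks 0 and 3) or 8 channels (weeks 6 and 9), and the labels state 6 biological replicates per group. The labels do not tie arrays to dogs. The p-values therefore reflect how far arrays of a kind differ, which is not the same as how far dogs differ. The arrays form a loop of weeks 0 and 9 and a loop of weeks 3 and 6 that no array joins, so weeks of different loops were never set against each other within a diet. The mean of weeks 3, 6 and 9, and its difference from week 0, combine diet differences of both loops. Every week had a separate slide for its diet arrays, so that week and slide cannot be told apart there. Of the 43603 probes, 31691 passed the filter on low signal and gave 25950 genes or unnamed transcripts, each read from its brightest probe. A gene was called where its adjusted p (limma, Benjamini-Hochberg over all 25950) was under 0.05. One of the 3 week 0 diet arrays, meat 0/kibble 0 replicate 1, stands apart from the other two for all 3 genes, and results that use week 0 are given with and without it.

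All 8 probes passed the filter and stood well above background in 60 of 60 channels, as did 41.5% of all probes. HMOX1 was the one read from a weak spot: in Cy3 its median signal was 144.5 over a local background of 20.25, and in Cy5 211.5 over 55.25. The main CD163 probe, which is spotted 5 times on each array, had a median Cy3 signal of 456.5 over a background of 21. The signals of the 5 FTH1 probes were very high, from 40459 to 150956 in Cy3, with 0 saturated spots. Of the monocyte markers, all 6 that were named on the array (CYBB, TLR4, CTSS, FCGR1A, S100A8 and CD86) were also well above background in every channel. With so large a share of all probes at that level, this cannot check the tissue that the labels give. CD14 and CSF1R were not among the genes named here. Of the 43603 probes 2175 had a gene symbol, so a probe without one may still read them.

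Between meat and kibble, all 3 transcripts were lower in the meat-fed dogs as a mean over weeks 3, 6 and 9, the weeks in which the diets were fed. Of the 3 genes 3 were called lower, in a comparison where 14.9% of all genes were called, 7.96% lower and 6.96% higher. PBMC are a mixture, in which fewer cells of a type and less RNA per cell cannot be told apart. The fitted decrease was 1.52-fold for CD163, nearly as much for FTH1 and 1.19-fold for HMOX1. The calls of CD163 and FTH1 were kept in all 16 other settings and without any 1 of the 30 arrays, whereas that of HMOX1 was not.

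CD163, the uptake receptor, was lower in meat than in kibble on 11 of 11 diet arrays of weeks 3, 6 and 9. With the dye effect removed, its log2 ratios of meat over kibble were -1.17, -0.86 and -0.52 at week 3. At week 6 they were -1.13, -0.46, -0.30 and -0.08, and at week 9 -0.58, -0.56, -0.40 and -0.23. No array of these weeks reached 0, and the array closest to equal levels was one of week 6. The fitted mean difference over the 3 weeks was -0.60 log2 (SE 0.14, 95% interval -0.90 to -0.31, limma adjusted p = 0.00515).

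Taken week by week, the CD163 difference was called at week 3 only, where 6.07% of all genes were called. It was -0.81 log2 (SE 0.24, limma adjusted p = 0.0395) at week 3, -0.52 (SE 0.22, adjusted p = 0.175) at week 6 and -0.47 (SE 0.22, adjusted p = 0.443) at week 9. At week 6 6.23% of all genes were called, and at week 9 0.593%. The week 3 call was lost in 6 of 16 other settings (adjusted p from 0.0109 to 0.171). It was also lost without any 1 of the 3 diet arrays of week 3, kibble 3/kibble 6 replicate 1, meat 6/meat 3 replicate 1 or meat 6/meat 3 replicate 4, with limma adjusted p from 0.0509 to 0.182. A difference between the weeks was tested from week 3 to 6 and is given with the changes over time.

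HMOX1, the haem-degrading enzyme, was lower in meat on 8 of 11 diet arrays of weeks 3, 6 and 9, by less than the other genes. Its log2 ratios were -0.54, -0.47 and -0.26 at week 3. At week 6 they were -0.66, -0.63, 0.03 and 0.25, and at week 9 -0.35, -0.22, -0.19 and 0.13. The week 6 arrays split by dye order: the pair with meat in Cy5 gave the low values and the pair with meat in Cy3 the values above 0. The fitted mean over the 3 weeks was -0.25 log2 (SE 0.08, 95% interval -0.42 to -0.08, limma adjusted p = 0.0386).

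This HMOX1 call stood near the threshold. It was lost in 9 of 16 other settings, with adjusted p from 0.0182 to 0.271. It was also lost without any 1 of 8 arrays (limma adjusted p from 0.061 to 0.145): the 3 diet arrays of week 3, kibble 6/meat 6 replicates 1 and 2, meat 9/kibble 9 replicates 1 and 2, and kibble 9/meat 9 replicate 2. In no single week was HMOX1 called. The differences were -0.31 (SE 0.14, limma adjusted p = 0.176) at week 3, -0.33 (SE 0.13, adjusted p = 0.122) at week 6 and -0.11 (SE 0.13, adjusted p = 0.814) at week 9. Without meat 6/kibble 6 replicate 2, the array with the highest week 6 value, the week 6 difference was -0.47 (limma adjusted p = 0.0308), and over the 16 other settings its adjusted p ran from 0.0444 to 0.572.

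FTH1, the iron-storing subunit, was lower in meat on 10 of 11 diet arrays of weeks 3, 6 and 9. Its log2 ratios were -1.22, -0.53 and -0.36 at week 3. At week 6 they were -1.36, -0.48, -0.45 and -0.34, and at week 9 -1.17, -0.55, -0.35 and 0.29. The array above 0 was kibble 9/meat 9 replicate 1, and each week held 1 array that was far lower than the rest. The fitted mean over the 3 weeks was -0.58 log2 (SE 0.13, 95% interval -0.86 to -0.30, limma adjusted p = 0.00416).

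In single weeks FTH1 missed the threshold by little at weeks 3 and 6. The differences were -0.71 (SE 0.22, limma adjusted p = 0.0532) at week 3, -0.65 (SE 0.21, adjusted p = 0.0596) at week 6 and -0.38 (SE 0.21, adjusted p = 0.553) at week 9. The week 9 value was -0.60 without kibble 9/meat 9 replicate 1 and -0.13 without kibble 9/meat 9 replicate 2 (limma adjusted p = 0.33 and 0.952). Both the week 3 and the week 6 difference were called in 5 of 16 other settings, with adjusted p from 0.0307 to 0.282 at week 3 and from 0.0371 to 0.165 at week 6. At week 3 it was called without any 1 of 6 arrays, with limma adjusted p from 0.0306 to 0.0469: kibble 0/kibble 9 replicates 1 and 4, meat 0/kibble 0 replicate 1, kibble 0/meat 0 replicate 1, meat 6/kibble 6 replicate 1 and kibble 9/meat 9 replicate 2. At week 6 it was called without any 1 of 4 arrays, with limma adjusted p from 0.0291 to 0.0397: kibble 0/kibble 9 replicate 1, meat 0/kibble 0 replicate 1, kibble 0/meat 0 replicate 1 and kibble 9/meat 9 replicate 1.

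**Figure D1:**
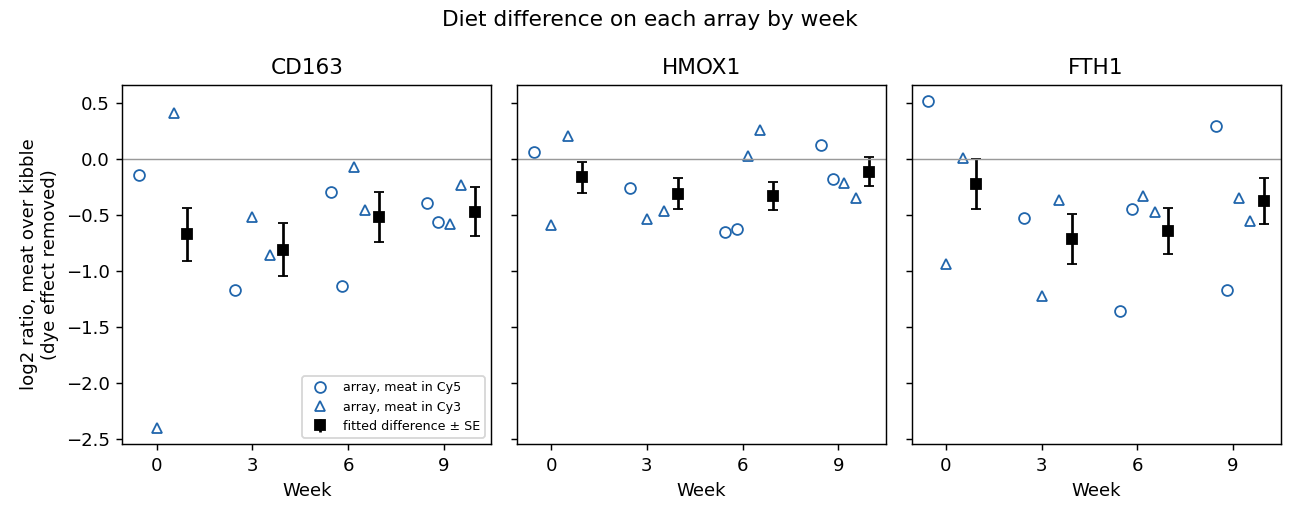
Log2 ratio of meat over kibble on each of the 14 diet arrays (open symbols, circles with meat in Cy5 and triangles with meat in Cy3, the fitted dye effect removed) by week, with the fitted difference and its SE (black squares), for CD163, HMOX1 and FTH1. At weeks 3, 6 and 9 all 11 CD163 values lie below 0, as do 10 of 11 for FTH1 and 8 of 11 for HMOX1, while the week 0 CD163 values run from -2.40 to 0.41.

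The probes of a gene gave the same direction for the mean of weeks 3, 6 and 9, and each was called when fitted on its own. The CD163 probes gave -0.60 (A_11_P051196) and -0.49 (A_11_P066351), with limma adjusted p of 0.00495 and 0.0118 over 31691 probes. The FTH1 probes lay between -0.58 and -0.49, with limma adjusted p from 0.00399 to 0.0198. Over the 30 arrays the ratios of the CD163 probes had a Pearson r of 0.98, and those of the FTH1 probes 0.96 to 0.99. Within an array, the 5 spots of the main CD163 probe varied with a median SD of 0.05 log2 and at most 0.10, far less than the arrays of a week. HMOX1 was read from 1 probe (A_11_P052596), so its values have no second probe beside them.

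In single weeks the probes of a gene fell on either side of the threshold although their values were close. At week 3 the call of CD163 came from A_11_P051196 (-0.81), while A_11_P066351 gave -0.70 (limma adjusted p = 0.0528). At week 6, FTH1 was called from 1 of 5 probes, A_11_P159623 (-0.65, limma adjusted p = 0.047), and the other FTH1 probes lay between -0.68 and -0.58.

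**Figure D2:**
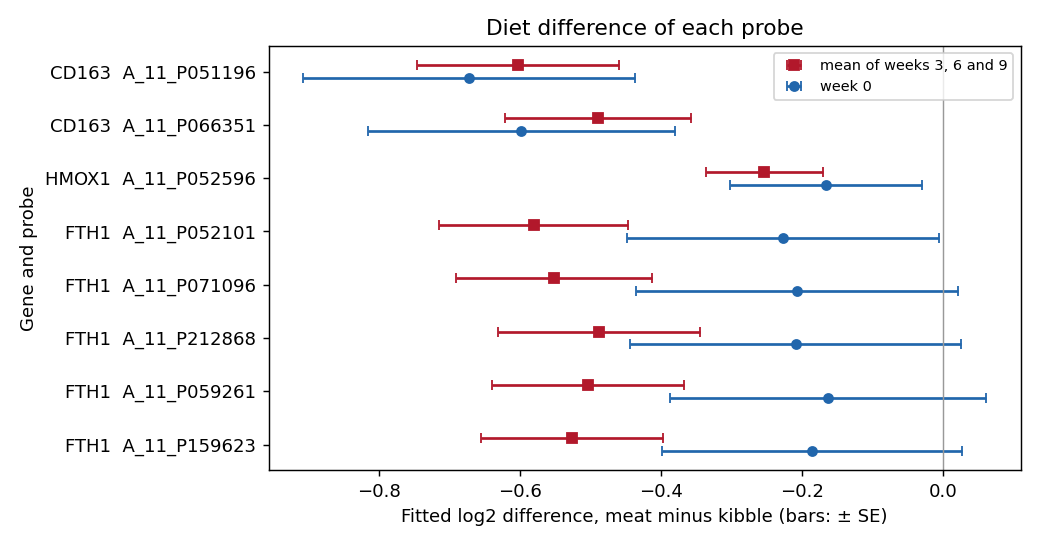
Fitted log2 difference of meat minus kibble for each of the 8 probes, as the mean of weeks 3, 6 and 9 (red squares) and at week 0 (blue circles), with bars of 1 SE. All 8 probes lie below 0 in both, between -0.60 and -0.25 in the mean of the fed weeks, and FTH1 lies nearer to 0 at week 0, between -0.23 and -0.16.

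Week 0, the start of feeding, shows whether the diet groups already differed. None of the 3 genes was called there, in a comparison where 0.312% of all genes were called. CD163 was -0.67 log2 (SE 0.24, 95% interval -1.16 to -0.19, limma adjusted p = 0.302), HMOX1 -0.17 (SE 0.14, adjusted p = 0.856) and FTH1 -0.23 (SE 0.22, adjusted p = 0.912). At an unadjusted limma p of 0.00857, CD163 lay among the 2.83% of genes with the smallest p.

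The week 0 values rest on 3 arrays that differ widely. For CD163 they were -2.40, -0.15 and 0.41, for HMOX1 -0.59, 0.06 and 0.20, and for FTH1 -0.94, 0.51 and 0.01, each in the order meat 0/kibble 0 replicate 1, kibble 0/meat 0 replicate 1 and meat 0/kibble 0 replicate 2. All 3 genes were lowest on the first of these arrays. Its 5 CD163 spots gave -2.47 to -2.38, so the low value was not 1 spot. On the same array 6 of 6 monocyte markers were lower in meat, with a median of -0.97, against 3 of 6 (median 0.03) and 1 of 6 (median 0.19) on the other two. The low values of meat 0/kibble 0 replicate 1 were not particular to monocyte genes. Of the other lists given below, it had 5 of 5 neutrophil genes under 0 (median -0.74) and 6 of 6 platelet genes (-0.71). It also had 6 of 6 from the cytotoxic list (-0.33) and 6 of 7 from the haem and iron list (-0.69) under 0. Red cell genes were under 0 in 2 of 3 (-0.12), T cell genes in 2 of 4 (0.06) and B cell genes in 1 of 2 (0.55). Platelet genes were under 0 in 6 of 6 on kibble 0/meat 0 replicate 1 (median -0.57) and meat 0/kibble 0 replicate 2 (-0.43) too. Each other list had genes above 0 on both of those arrays. The part of the genes of all these lists in the CD163 value was not tested.

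Without that array the week 0 differences were close to 0, at -0.03 (SE 0.15) for CD163, -0.01 (SE 0.15) for HMOX1 and 0.04 (SE 0.25) for FTH1. The decreases over weeks 3, 6 and 9 stayed, at -0.57 for CD163 (limma adjusted p = 3.4e-05), -0.25 for HMOX1 (adjusted p = 0.0343) and -0.57 for FTH1 (adjusted p = 0.0031). The week 6 difference of CD163 was then called too, at -0.60 (limma adjusted p = 0.00338). It was also called with array weights, where it was -0.54 (limma adjusted p = 0.0326), and over the 16 other settings its adjusted p ran from 0.0326 to 0.438. When instead meat 0/kibble 0 replicate 2, the highest of the week 0 arrays, was left out, the week 0 difference of CD163 was -1.07 (limma adjusted p = 0.0326). Over the 16 other settings its adjusted p ran from 0.218 to 0.987.

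Whether the diet difference grew from week 0 to the fed weeks was tested as the difference between both differences, which pools arrays from both loops. It was called for none of the 3 genes and for 0% of all genes, with 2347 of 25950 genes at an unadjusted limma p under 0.05. It was 0.07 log2 (SE 0.26, 95% interval -0.46 to 0.60, limma adjusted p = 0.968) for CD163, -0.09 (SE 0.15, interval -0.39 to 0.22, adjusted p = 0.926) for HMOX1 and -0.35 (SE 0.24, interval -0.85 to 0.14, adjusted p = 0.724) for FTH1. Without meat 0/kibble 0 replicate 1 it was -0.54 (SE 0.16, limma adjusted p = 0.0993) for CD163, -0.24 (SE 0.16, adjusted p = 0.525) for HMOX1 and -0.60 (SE 0.26, adjusted p = 0.277) for FTH1. One array thus turned the sign for CD163, and in neither fit was the difference between the fed weeks and week 0 called.

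**Figure D3:**
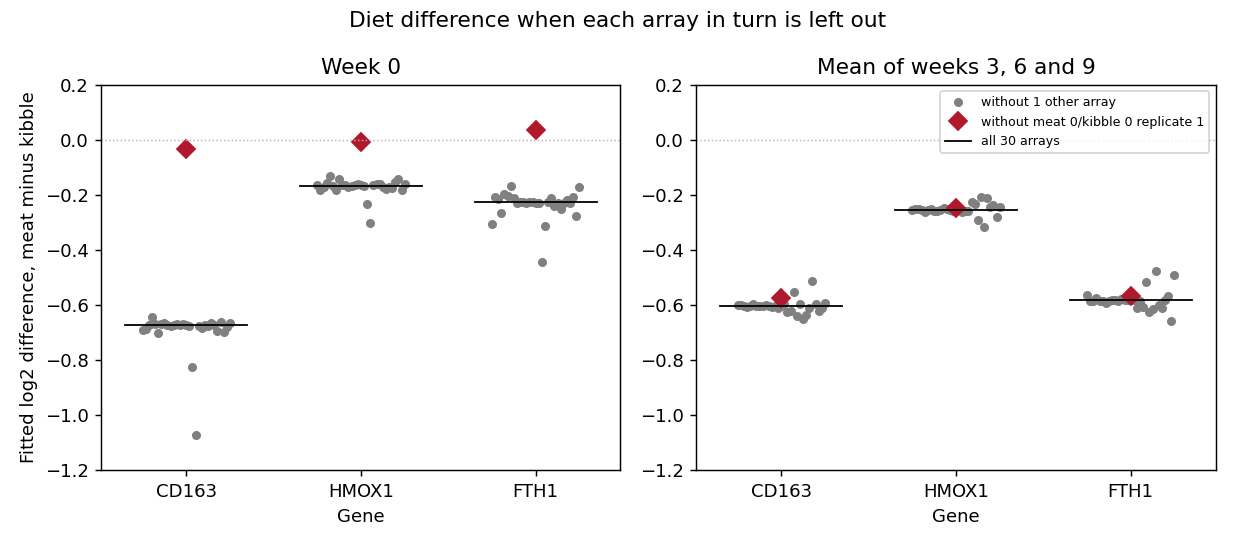
Fitted log2 difference of meat minus kibble at week 0 (left) and as the mean of weeks 3, 6 and 9 (right) when each of the 30 arrays in turn is left out (grey circles), with the fit of all 30 arrays as a line and the fit without meat 0/kibble 0 replicate 1 as a red diamond. At week 0 that array moves CD163 from -0.67 to -0.03, while the mean of the fed weeks moves from -0.60 to -0.57.

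The order of the groups by level was read from the separate channels, each given as log2 intensity with the dye effect removed, as mean and SD over 7 or 8 channels. For CD163 the 4 kibble groups stood above the 4 meat groups: kibble 9 (9.91, SD 0.39), kibble 6 (9.80, SD 0.69), kibble 0 (9.61, SD 0.70), kibble 3 (9.49, SD 0.50), then meat 6 (9.30, SD 0.31), meat 9 (9.04, SD 0.74), meat 3 (8.69, SD 0.51) and meat 0 (8.49, SD 0.77). Each of the 7 steps between neighbours in this order, the largest 0.35, was smaller than the SD of either neighbour. Within each week the channels of the diets overlapped: at week 3 meat ran from 8.18 to 9.51 (median 8.54) and kibble from 9.06 to 10.54 (median 9.35).

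FTH1 also had the 4 kibble groups above the 4 meat groups, from kibble 6 (17.68, SD 0.37), kibble 9 (17.62, SD 0.34), kibble 3 (17.43, SD 0.13) and kibble 0 (17.33, SD 0.39) to meat 6 (17.30, SD 0.21), meat 9 (17.28, SD 0.21), meat 0 (17.15, SD 0.30) and meat 3 (17.02, SD 0.32). Of its 7 steps 1 was larger than the smaller SD of its neighbours, the 0.19 from kibble 9 to kibble 3. At week 3 the meat channels lay between 16.38 and 17.34 (median 17.08) and the kibble channels between 17.28 and 17.61 (median 17.37), a narrow overlap. The channels carry the differences between arrays that cancel in the ratios, so the tests above rest on the ratios.

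HMOX1 did not sort by diet alone. Its order was kibble 6 (8.01, SD 0.27), kibble 9 (7.77, SD 0.42), meat 6 (7.69, SD 0.32), meat 9 (7.69, SD 0.19), kibble 3 (7.55, SD 0.32), kibble 0 (7.49, SD 0.46), meat 0 (7.36, SD 0.14) and meat 3 (7.26, SD 0.24). All groups of weeks 6 and 9 stood above all groups of weeks 0 and 3, and within each week kibble stood above meat. Again each of the 7 steps was within the SD of either neighbour, the largest being 0.24. At week 6 meat ran from 7.26 to 8.22 (median 7.73) and kibble from 7.54 to 8.43 (median 7.97).

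**Figure D4:**
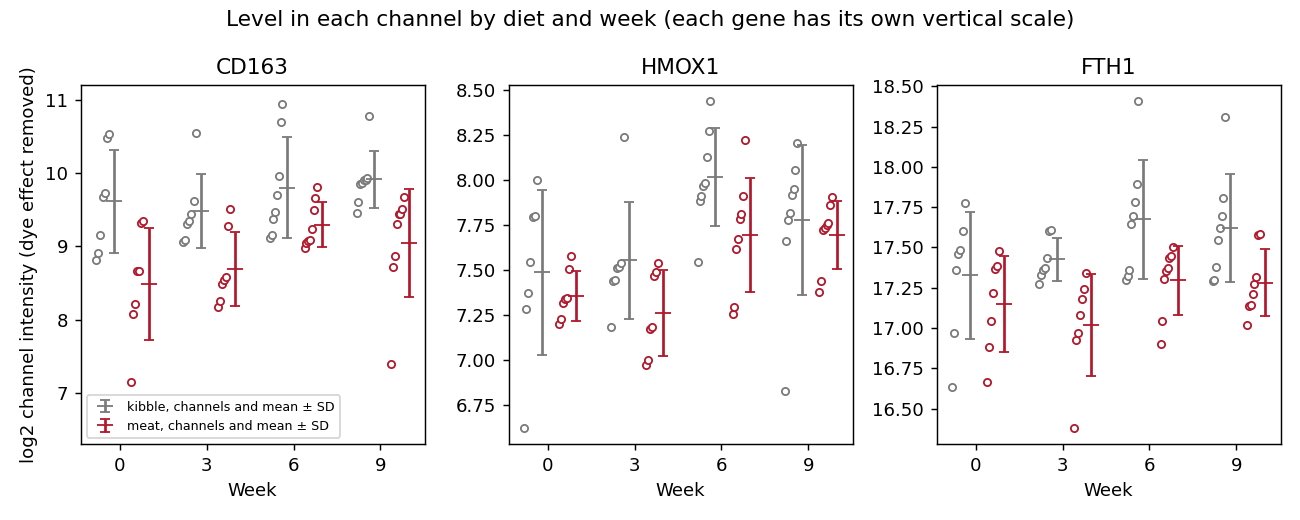
Level of CD163, HMOX1 and FTH1 in each channel (circles, log2 intensity with the dye effect removed) for kibble (grey) and meat (red) by week, with mean and SD, on a vertical scale of its own for each gene. The kibble mean lies above the meat mean at each week for each gene, and the ranges of the diets overlap at each week.

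Over time within a diet, the fitted changes of all 3 genes were above 0 on both diets, and none was called. With median centring, however, the kibble changes of CD163 (-0.010) and FTH1 (-0.24) from week 0 to 9 lay below 0. The share of all genes called was 13.6% from week 0 to 9 on kibble and 8.01% on meat, and 0.0347% from week 3 to 6 on kibble and 2.24% on meat. CD163 ratios of week 9 over week 0 were 0.45, 0.25, 0.20 and 0.19 on kibble and 0.78, 0.51, 0.25 and 0.09 on meat, so all 8 arrays were above 0. The fitted changes were 0.24 (SE 0.22, 95% interval -0.21 to 0.69, limma adjusted p = 0.538) on kibble and 0.44 (SE 0.22, interval -0.01 to 0.89, adjusted p = 0.247) on meat. Without meat 0/kibble 0 replicate 1, a diet array that enters both changes through the loop, the kibble change was 0.50 (limma adjusted p = 0.00885) and the meat change 0.18 (adjusted p = 0.45), so kibble then had the larger value. The kibble change was 0.30 (limma adjusted p = 0.0481) from the directly compared arrays alone, and over the 16 other settings its adjusted p ran from 0.0481 to 0.974. Those arrays share 1 dye order and were fitted without a dye term, so the dye effect (0.02 log2 for CD163) is left in the 0.30.

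From week 3 to 6, CD163 changed by 0.08 log2 (SE 0.22, limma adjusted p = 0.886) on kibble, where the arrays gave 0.17, 0.16, 0.08 and 0.03. On meat the change was 0.38 (SE 0.22, limma adjusted p = 0.373), with arrays at 0.72, 0.56, 0.15 and -0.04. Set against each other, the changes of CD163 on meat and kibble differed by 0.20 log2 (SE 0.27, limma adjusted p = 0.884) from week 0 to 9 and by 0.29 (SE 0.27, adjusted p = 0.778) from week 3 to 6. Without meat 0/kibble 0 replicate 1 the first of these was -0.33 (SE 0.16, limma adjusted p = 0.487), so its sign rests on that array. In both of these tests 0% of all genes were called, with 2041 and 2522 of 25950 genes at an unadjusted limma p under 0.05.

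HMOX1 ratios of week 9 over week 0 were 0.53, 0.39, 0.25 and 0.06 on meat, all above 0, and 0.40, 0.26, 0.21 and -0.18 on kibble. The fitted changes were 0.26 (SE 0.13, 95% interval 0.01 to 0.52, limma adjusted p = 0.222) on meat and 0.21 (SE 0.13, interval -0.05 to 0.47, adjusted p = 0.29) on kibble. From week 3 to 6 they were 0.17 (SE 0.13, limma adjusted p = 0.506) on meat and 0.19 (SE 0.13, adjusted p = 0.431) on kibble. The dye effect of HMOX1, at -0.25 log2 of Cy5 over Cy3, was of a size with these changes. With it removed, 3 or 4 of 4 arrays of each kind were above 0, but as measured 2 of 4 kibble arrays of week 9 over week 0 were. From the directly compared arrays alone, fitted without a dye term, that kibble change was -0.082, against 0.21 in the main fit. Those arrays share 1 dye order, so the dye effect is left in the value of -0.082. Without meat 0/kibble 0 replicate 1 the changes from week 0 to 9 were 0.20 on meat and 0.28 on kibble (limma adjusted p = 0.373 and 0.141). The difference between the diets in these changes was 0.05 (SE 0.15, limma adjusted p = 0.953; -0.079 without that array) from week 0 to 9 and -0.02 (SE 0.15, adjusted p = 0.984) from week 3 to 6.

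FTH1 had the widest spread between the arrays of week 9 over week 0. On kibble the ratios of week 9 over week 0 were 1.17, 0.09, -0.10 and -0.48, and on meat 0.36, 0.33, 0.27 and -0.37. The fitted changes were 0.24 (SE 0.20, limma adjusted p = 0.514) on kibble and 0.08 (SE 0.20, adjusted p = 0.877) on meat. Without meat 0/kibble 0 replicate 1 they were 0.34 and -0.025 (limma adjusted p = 0.28 and 0.966). From week 3 to 6 they were 0.06 (SE 0.20, limma adjusted p = 0.922) and 0.12 (SE 0.20, adjusted p = 0.799). The dye effect of FTH1, at 0.43 log2 of Cy5 over Cy3, was larger than these changes, and all time arrays of a diet share 1 dye order. As measured, with the dye effect left in, 4 of 4 meat arrays lay below 0 both from week 0 to 9 and from week 3 to 6. Without a dye term the fitted meat changes of FTH1 were -0.12 and -0.08, so their direction rests on the dye term. The diets differed in the change of FTH1 by -0.15 (SE 0.25, limma adjusted p = 0.905) from week 0 to 9 (-0.37 without meat 0/kibble 0 replicate 1) and by 0.07 (SE 0.25, adjusted p = 0.97) from week 3 to 6.

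**Figure D5:**
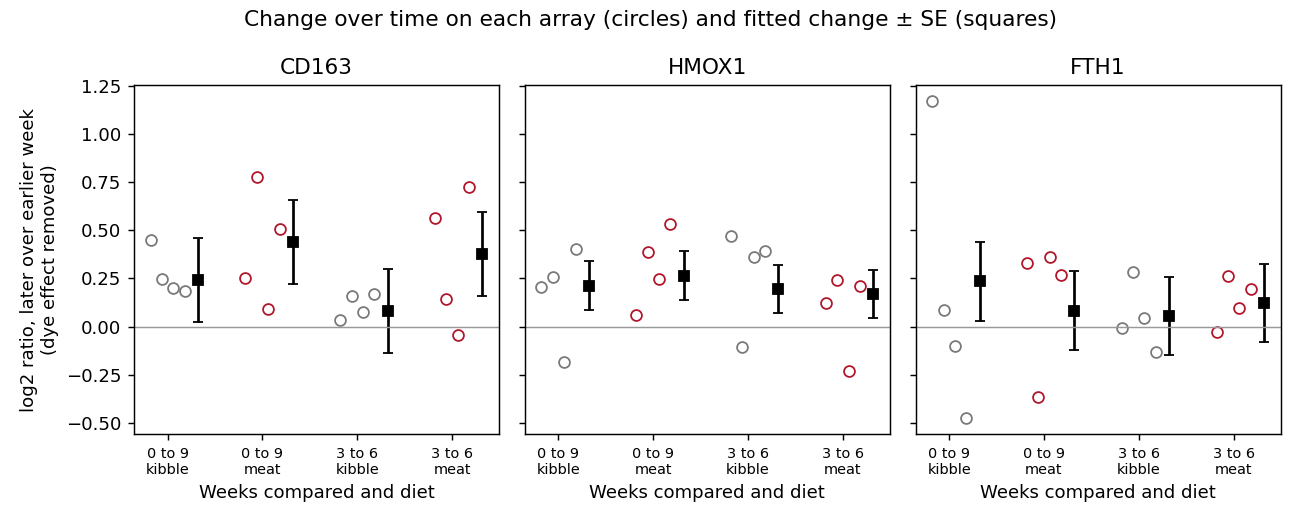
Log2 ratio of the later over the earlier week on each of the 16 time arrays (circles, kibble grey and meat red, dye effect removed) with the fitted change and its SE (black squares). All 8 CD163 arrays of week 9 over week 0 lie above 0, and the kibble arrays of FTH1 spread from -0.48 to 1.17.

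Of 56 further genes listed for haem and iron handling, 7 were named on the array and all 7 passed the filter. As a mean of weeks 3, 6 and 9, 1 of the 7 was called lower in meat and 0 higher, beside 14.9% of all genes called in either direction, the median over the 7 being -0.13 log2 against 0.00 over all genes. LTF, lactoferrin, an iron-binding protein of neutrophil granules that also stands on the neutrophil list below, was lower at -0.77 (SE 0.16, limma adjusted p = 0.002). FTL, the light subunit of ferritin and the partner of FTH1 in the shell, was at -0.21 (SE 0.08, limma adjusted p = 0.0599) and was not called.

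In single weeks the called haem and iron genes were few. At week 3, where 6.07% of all genes were called, LTF (-1.17, limma adjusted p = 0.0122) and TXNRD1 (-0.28, adjusted p = 0.0401), a thioredoxin reductase, were lower. At weeks 0, 6 and 9 none of the 7 was called between the diets, beside 0.312%, 6.23% and 0.593% of all genes. Over time 1 was called: MT2A, a metallothionein that binds zinc and copper, rose from week 0 to 9 on meat by 0.63 (SE 0.18, limma adjusted p = 0.0311). In that comparison 8.01% of all genes were called.

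Several of these single-week calls depend on 1 array. The LTF call at week 3 was lost without kibble 3/meat 3 replicate 1 (limma adjusted p = 0.0895, from 0.00774 to 0.171 over the other settings). The week 3 call of TXNRD1 was lost without any 1 of 7 arrays (up to limma adjusted p of 0.15) and in 8 of 16 other settings (from 0.0116 to 0.376). The arrays were the 3 diet arrays of week 3, kibble 3/kibble 6 replicates 1 and 4, meat 6/meat 3 replicate 4 and kibble 6/meat 6 replicate 1. The MT2A call was lost without meat 9/meat 0 replicate 2 or 4 or kibble 9/meat 9 replicate 1 or 2 (up to 0.174) and in 5 of 16 other settings (limma adjusted p from 0.0194 to 0.176). The mean call of LTF was kept without any 1 array.

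Among the 1086 other genes with a symbol, those whose ratios ran most like each member were picked by Pearson r over the 30 arrays, which share the dye orders and the loop groups. For CD163 these were NPC2 (0.90), a lysosomal cholesterol carrier, ANPEP (0.88), the myeloid surface peptidase CD13, TNFSF13 (0.88), the B cell cytokine APRIL, ANXA2 (0.86), a membrane-binding annexin, and DHRS4 (0.86), a carbonyl reductase. The median r of CD163 with all such genes was 0.05. The same arrays give the diet difference, so genes picked this way tend to share its direction by choice, and their calls support nothing further. All 5 were called lower in meat as a mean of weeks 3, 6 and 9, between -0.43 (ANXA2) and -0.24 (DHRS4), with limma adjusted p from 0.000108 to 0.0102, beside 7.96% of all genes called lower. With median centring 1 of the 5, ANXA2, stayed called (limma adjusted p = 0.0486), and NPC2, ANPEP, TNFSF13 and DHRS4 did not (0.17 to 0.429). The ANPEP call was lost without kibble 3/meat 3 replicate 1 (limma adjusted p = 0.062, from 0.00287 to 0.19 over the other settings).

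For HMOX1 the most alike were ARHGAP18 (0.79), a GTPase-activating protein, NPC2 (0.76), P2RY1 (0.76), the ADP receptor of platelets, RAC1 (0.75), a small GTPase, and FXYD6 (0.75), a regulator of the sodium pump. The median r of HMOX1 was 0.06. NPC2 stood in the first 5 of both CD163 and HMOX1. Of the 5, FXYD6 was not called (-0.08, limma adjusted p = 0.695) and the other 4 were called lower, between -0.32 (RAC1) and -0.26 (ARHGAP18). With median centring ARHGAP18 (limma adjusted p = 0.101), RAC1 (0.0814) and NPC2 (0.359) were not called.

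For FTH1 the closest was LOC403631 (0.99), which the gene table used here leaves without a name. It has a RefSeq transcript of its own, and whether its probe also binds FTH1 transcripts was not tested, so its -0.55 (SE 0.13, limma adjusted p = 0.00636) is not counted as a further gene. The partner subunit FTL followed (0.85), then RTN3 (0.84), a reticulon of the endoplasmic reticulum, CAT (0.84), catalase, which breaks down hydrogen peroxide, and EIF1 (0.83), a factor that helps choose the start codon. RTN3 (-0.34), CAT (-0.35) and EIF1 (-0.21) were called lower, with limma adjusted p of 0.00167, 0.00251 and 0.0431. The EIF1 call was lost in 7 of 16 other settings (limma adjusted p up to 0.486), that of CAT in 2 (up to 0.108) and that of RTN3 in 1, median centring (0.0788). The EIF1 call was also lost without any 1 of 10 arrays (up to limma adjusted p of 0.222): the 3 diet arrays of week 3, kibble 3/kibble 6 replicate 4, meat 6/meat 3 replicate 4, kibble 6/meat 6 replicates 1 and 2, meat 9/kibble 9 replicates 1 and 2, and kibble 9/meat 9 replicate 2. The median r of FTH1 was 0.09.

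Between the members the ratios over the 30 arrays had a Pearson r of 0.69 for CD163 and HMOX1, 0.57 for CD163 and FTH1, and 0.57 for HMOX1 and FTH1. The median r with all genes with a symbol was 0.05 for CD163, 0.06 for HMOX1 and 0.09 for FTH1. Each pair lay below the r of the 5 closest genes, which were picked as the highest of 1086.

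Markers of several blood cell types also differed between the diet groups, and their part in the results was not tested. Of the 15 monocyte markers listed 6 were named on the array, and all 6 were below 0 in the mean of weeks 3, 6 and 9 (median -0.45). Of these 3 were called lower, beside 7.96% of all genes. They were CYBB (-0.69), the catalytic subunit of the phagocyte oxidase, TLR4 (-0.43), the receptor for endotoxin, and CTSS (-0.39), a lysosomal protease (limma adjusted p = 5.7e-05, 0.00389 and 0.00547). With median centring TLR4 and CTSS were not called (limma adjusted p = 0.0945 and 0.187). The summed level of the 6 ran from 14.6 to 17.1 log2 (median 15.7) over the 23 meat channels of weeks 3, 6 and 9 and from 15.5 to 16.6 (median 16.3) over the 23 kibble channels. In these sums and those below the dye effect was left in, and more of the meat than of the kibble channels were Cy3. The sums thus do not separate diet from dye. Over the 30 arrays CD163 had a Pearson r of 0.85 with CYBB, 0.83 with CTSS, 0.78 with TLR4 and 0.76 with CD86, but 0.28 with FCGR1A and 0.13 with S100A8. For HMOX1 r ran from 0.04 (S100A8) to 0.74 (CTSS), and for FTH1 from 0.30 (CD86) to 0.71 (CYBB).

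In the same comparison 6 of 6 platelet markers were called lower (median -0.84), as were 3 of 5 neutrophil markers (median -0.43), 4 of 6 markers of cytotoxic T and NK cells (median -0.29) and 1 of 3 red cell markers (EPOR, the erythropoietin receptor, median of the 3 -0.098). Of 4 T cell markers 2 were called higher and 1 lower, and of 2 B cell markers 0 were called. Over all genes 7.96% were called lower and 6.96% higher. At week 0, where 0.312% of all genes were called, 6 of 6 platelet markers were already below 0 (median -0.61, 0 called). On each of the 3 week 0 arrays 6 of 6 were lower (medians -0.71, -0.57 and -0.43). Neutrophil markers were below 0 at week 0 in 4 of 5 (median -0.40, 1 called), and cytotoxic markers in 3 of 6 (median -0.09, 0 called). Over weeks 3, 6 and 9, with the dye effect left in, the summed platelet markers ran from 13.1 to 15.1 log2 (median 14.4) over the meat channels and from 14.7 to 16.3 (median 15.1) over the kibble channels. Red cell markers summed to 8.60 to 9.12 (median 8.87) on meat and 8.40 to 9.21 (median 9.03) on kibble, and the globin genes were not among the genes named here. Neutrophil markers summed to 12.2 to 14.1 (median 13.2) on meat and 12.8 to 16.3 (median 13.3) on kibble, and those of cytotoxic cells to 12.9 to 15.6 (median 13.99) and 13.5 to 15.9 (median 14.8). Some of these readings were weak. For the 3 red cell markers in 23 channels per diet, 21 readings on meat and 19 on kibble were not well above background. For the 6 cytotoxic markers these were 19 and 13, for the 5 neutrophil markers 4 and 3, and for the platelet markers 0 on both diets.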

How the data were processed

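Spot intensities were taken from the scanner output of 30 arrays, which per the file headers the authors made with Agilent Feature Extraction 10.10.1.1. Used were the median Cy3 and Cy5 intensity of a spot and its local background. The deposited matrix holds the authors' log2 ratios, for which the submitters' processing notes name limma. It served as an alternative, with a correlation of 0.824 to 0.991 per array to the ratios computed here. Control spots and 979 faulty spots were dropped. Normexp (offset 50) corrected the background and loess normalised the ratios of an array. A probe entered where 7 or more of 60 channels were well above background (31691 probes), and the brightest probe stood for its gene. Loess centres each array, so a difference is relative to the bulk of the genes. Levels came from separate channels after A-quantile normalisation.

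One limma model (version 3.58.1, R 4.3.3, package data.table in version 1.17.8) covered all arrays, with a term per group and a dye term for each gene, leaving 23 residual degrees of freedom (26.1 after moderation). Tests were two-sided, adjusted by Benjamini-Hochberg over 25950 genes or transcripts with a threshold of 0.05, and the model code was tested on simulated data. Precision is limited by how few arrays there are.

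The 3 genes and the lists were chosen with earlier results of these data known. Some genes of the lists are not reported here and were left out of their counts. Also named are the called genes of the haem and iron list, the 5 genes with a symbol that correlate most with each member, and examples of cell type markers. The alternatives changed the background correction, the source of the signals (processed signals or deposited ratios), centring, scaling, the filter (none, or 30 channels), the dye term, the block (slide or replicate number), the moderation, array weights, the arrays used and the probe summary, or left out each array in turn.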

Additional observations from a re-analysis of the deposited data

Results flagged for a closer look

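In 7 of 42 sets of arrays or channels checked, 1 value stood further from the rest than Dixon's 95% limit for its size allows, which chance gives in about 1 in 20 sets. For levels, given as log2 intensity with the dye effect removed, the kibble week 3 channel of kibble 3/kibble 6 replicate 2 was the highest of its 7 for both CD163 (10.54, next 9.62) and HMOX1 (8.24, next 7.54). CD163 was highest of 8 at kibble week 9 in kibble 0/kibble 9 replicate 2 (10.78, next 9.93). It was lowest of 8 at meat week 9 in meat 9/meat 0 replicate 1 (7.39, next 8.72). HMOX1 was lowest of 8 at kibble week 9 in kibble 0/kibble 9 replicate 1 (6.83, next 7.66).

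Of the log2 ratios, FTH1 was lowest of 4 on kibble 6/meat 6 replicate 1 in meat over kibble at week 6 (-1.36, next -0.48) and lowest of 4 on meat 9/meat 0 replicate 2 in week 9 over week 0 on meat (-0.37, next 0.27). The mean diet difference of FTH1 over weeks 3, 6 and 9 was called without any 1 of the 30 arrays (limma adjusted p at most 0.0264). The week 0 arrays, 3 in number, are too few for this check, and their spread is given with the week 0 results.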

How the results depend on the processing

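The 3 genes were refitted under 16 other settings, of which a dye term per scan session and the slide as a fixed term were chosen after seeing the data. CD163 and FTH1 kept their lower mean diet difference in all 16, from -0.67 to -0.51 and from -0.68 to -0.50. Of 576 values over 12 comparisons, 510 kept their direction and their side of the threshold, 15 were no longer called, 13 were newly called and 38 changed sign, none of them a called value. The cause of these shifts was not tested. For changes over time within a diet, the directly compared arrays alone had 1 dye order and were fitted without a dye term. The dye effect is thus left in those values. CD163's diet difference at week 3 was no longer called from the Feature Extraction processed signals (-0.94), with median centring (-0.83), with no filter (-0.81), from the directly compared arrays alone (-0.93), with a dye term per scan session (-0.87) and with the slide as a fixed term (-0.93). CD163's diet difference at week 6 was newly called with array weights (-0.54). CD163's difference between the fed weeks and week 0 changed sign after scaling the arrays to one spread (-0.027), with array weights (-0.32) and with the slide as a fixed term (-0.050). CD163's kibble change from week 0 to 9 was newly called from the directly compared arrays alone (0.30). CD163's kibble change from week 0 to 9 changed sign with median centring (-0.010). CD163's diet contrast in the change from week 0 to 9 changed sign with array weights (-0.14). HMOX1's diet difference at week 6 was newly called with array weights (-0.33). HMOX1's diet difference at week 9 changed sign without a dye term (0.022). HMOX1's mean diet difference over weeks 3, 6 and 9 was no longer called without background correction (-0.24), from the Feature Extraction processed signals (-0.34), from the deposited log2 ratios (-0.23), with median centring (-0.20), after scaling the arrays to one spread (-0.20), with no filter (-0.25), without a dye term (-0.19), with array weights (-0.20) and from the directly compared arrays alone (-0.28). HMOX1's difference between the fed weeks and week 0 changed sign with median centring (0.0019) and without a dye term (0.068). HMOX1's kibble change from week 0 to 9 changed sign from the directly compared arrays alone (-0.082). HMOX1's diet contrast in the change from week 0 to 9 changed sign from the directly compared arrays alone (-0.090) and with the slide as a fixed term (-0.090). HMOX1's diet contrast in the change from week 3 to 6 changed sign without background correction (0.028), from the Feature Extraction processed signals (0.13), from the deposited log2 ratios (0.031), with median centring (0.059), after scaling the arrays to one spread (0.0019), without a dye term (0.21), from the directly compared arrays alone (0.24), with a dye term per scan session (0.035) and with the slide as a fixed term (0.13). FTH1's diet difference at week 0 changed sign from the directly compared arrays alone (0.024) and with the slide as a fixed term (0.024). FTH1's diet difference at week 3 was newly called without background correction (-0.73), from the deposited log2 ratios (-0.71), with median centring (-0.86), with a filter of 30 channels (-0.71) and with array weights (-0.68). FTH1's diet difference at week 6 was newly called without background correction (-0.66), from the Feature Extraction processed signals (-0.72), without a dye term (-0.88) and with array weights (-0.56). FTH1's kibble change from week 0 to 9 changed sign with median centring (-0.24). FTH1's meat change from week 0 to 9 changed sign from the Feature Extraction processed signals (-0.013), without a dye term (-0.12), from the directly compared arrays alone (-0.28) and with the slide as a fixed term (-0.076). FTH1's kibble change from week 3 to 6 changed sign with median centring (-0.031) and with array weights (-0.0022). FTH1's meat change from week 3 to 6 changed sign without a dye term (-0.077) and from the directly compared arrays alone (-0.30). FTH1's diet contrast in the change from week 0 to 9 changed sign with median centring (0.29). FTH1's diet contrast in the change from week 3 to 6 changed sign after scaling the arrays to one spread (-0.049), without a dye term (-0.33), on the mean over the probes (-0.029) and with a dye term per scan session (-0.036). The number of genes called in the mean diet difference was 1079 with median centring and 2390 from the directly compared arrays alone, against 3871.

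Arrays of different kinds share replicate numbers that the labels do not tie to dogs. Over 123 pairs of arrays with the same number, the correlation of their deviations ran from -0.78 to 0.63, and 45 pairs were over 0.1. The median was -0.018, against -0.022 for other pairs. A dog shared between arrays could give a correlation of either sign, depending on its dye on each. These values therefore cannot decide whether the numbers pair the arrays. With the replicate block, the diet difference of FTH1 at week 6 was newly called (-0.71), the diet contrast in the change from week 3 to 6 changed sign for HMOX1 (0.015) and FTH1 (-0.037), no other call of the 3 genes changed, and 3752 genes were called in the mean diet difference.

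Each of the 30 arrays was left out in turn. For CD163 this moved the diet difference at week 0 from -1.07 to -0.034, the diet difference at week 3 from -0.92 to -0.71, the diet difference at week 6 from -0.62 to -0.32, the difference between the fed weeks and week 0 from -0.54 to 0.45, the kibble change from week 0 to 9 from 0.076 to 0.50 and the diet contrast in the change from week 0 to 9 from -0.33 to 0.53. For HMOX1 this moved the diet difference at week 6 from -0.47 to -0.23, the mean diet difference over weeks 3, 6 and 9 from -0.32 to -0.21, the difference between the fed weeks and week 0 from -0.24 to 0.043, the diet contrast in the change from week 0 to 9 from -0.079 to 0.16 and the diet contrast in the change from week 3 to 6 from -0.096 to 0.055. For FTH1 this moved the diet difference at week 0 from -0.44 to 0.035, the diet difference at week 3 from -0.84 to -0.53, the diet difference at week 6 from -0.72 to -0.42, the meat change from week 0 to 9 from -0.025 to 0.19, the kibble change from week 3 to 6 from -0.034 to 0.13, the diet contrast in the change from week 0 to 9 from -0.37 to 0.043 and the diet contrast in the change from week 3 to 6 from -0.087 to 0.25. The small number of arrays per week limits the precision.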
